A study of Mus musculus with 2 samples.

Results

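Hemidesmosomes are the junctions that fasten basal keratinocytes to the basement membrane, and laminin-332 is the ligand they hold on to. The genes described here encode parts of both, and were chosen by symbol: Lama3, Lamb3, Itga3, Itga6, Itgb4, Col17a1, Dst, Plec and Cd151. All 9 were found, among 22383 genes in the deposited table. The table has values for 2 libraries of iHFSC2, a mouse line made by immortalizing stem cells of the hair follicle, with 1 library in each group. The control library came from cells with the empty vector, and the hairpin library from cells with pwslv-shcircSmad5, a lentivirus whose short hairpin is directed at circSmad5, a circular RNA of the Smad5 gene. In both groups puromycin was added at day 4 after infection and the lines were used as stable lines from day 15. The control vector carried no hairpin, so an effect of any hairpin and an effect of losing circSmad5 cannot be told apart, and neither can differences between separately selected lines.

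In a hemidesmosome, integrin alpha6beta4 spans the cell membrane, binds laminin-332 outside the cell and is tied inside it to keratin filaments through the plakins plectin and BPAG1. Collagen XVII, a transmembrane collagen, and the tetraspanin CD151 sit in the same structure. Integrin alpha3beta1 binds the same laminin but links to actin at focal adhesions, and in hair follicle stem cells alpha6 is a standard surface marker and collagen XVII is known for its part in keeping the stem cells in the bulge.

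The hairpin's target is shown because it defines the perturbation. It reads, with the bases before the junction in lower case and those after it in capitals,
hairpin target: tccagcagagGACTTGCACTA
and its first 10 bases are the end of Smad5 exon 4 (GRCm38, chr13:56728510-56728629) and its last 11 bases the start of exon 2 (chr13:56723429-56723996). That order of exons, a later one joined to an earlier one, was found with 5 of 6 annotated Smad5 transcripts. The whole target occurred in 0 annotated transcripts of the 9 genes. Smad5, the host gene, had 3109 counts in the control library and 3413 in the hairpin library. Reads of circular and linear Smad5 RNA are pooled in this value, so the knockdown itself cannot be read from it.

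The totals were 39261010 and 38382081 gene counts in the control and hairpin libraries. The basal keratinocyte markers were present: Krt5 had 206538 and 224675 counts, and Trp63, the gene of the basal transcription factor p63, had 11857 and 9449. The 5 markers of this list summed to 12224 and 14083 CPM, which gives counts relative to the TMM-scaled library size. Endothelial and Schwann cells also use integrin alpha6beta4. The 4 endothelial markers in the table summed to 3.10 and 0.79 CPM, with Cdh5 at 0 in both libraries, and the 3 Schwann cell markers to 2.60 and 3.03 CPM. The sums were 4.19 and 1.68 CPM for fibroblast markers (3 of 6 at 0 in both), 22.2 and 11.7 for melanocyte markers, 1.46 and 0.331 for immune markers, and 20.1 and 19.0 for suprabasal keratinocyte markers. The fibroblast, melanocyte and suprabasal sums each came mostly from a single gene, so they are not levels of those cell types.

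The adhesion genes were abundant in both libraries, and none differed by as much as 1.5-fold. Itga6 and Lamb3 were the lowest in the hairpin library relative to the control library, 1.44-fold and 1.41-fold lower. Dst was the highest, 1.19-fold higher. Summed over the 9 genes, the level was 10770 CPM in the control library and 10799 CPM in the hairpin library, so the sums were close while the single genes lay on both sides of 0. With 1 library per group none of these differences has a replicate check, and fewer expressing cells and less RNA per cell cannot be told apart.

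A size rule served in place of a test: at least 20 counts in 1 or both libraries, at least a 2-fold difference after TMM scaling, and an exact Clopper-Pearson 95% counting interval of the ratio that excludes 1. All 9 genes had at least 20 counts, and 0 of 9 passed the rule, against a background of 14.7% of 13596 genes with at least 20 counts (8.43% higher and 6.24% lower). Among the 876 genes with at least 10000 counts, 3.42% passed. Of the 11605 protein-coding genes with at least 20 counts, 535 passed as higher and 740 as lower. The interval excluded 1 for 8 of 9 genes, 4 higher (background 34.9%) and 4 lower (38.5%). That is close to the background at this depth, as the interval excluded 1 for 73.3% of genes with at least 20 counts and for 91.8% of those with at least 10000. The median log2 ratio of the 9 genes was 0.01, with a range from -0.53 to 0.25, and that of all genes with at least 20 counts was -0.02. All 9 lay within 1.5-fold, as did 71.0% of genes with at least 20 counts and 89.0% of those with at least 10000.

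**Figure D1:**
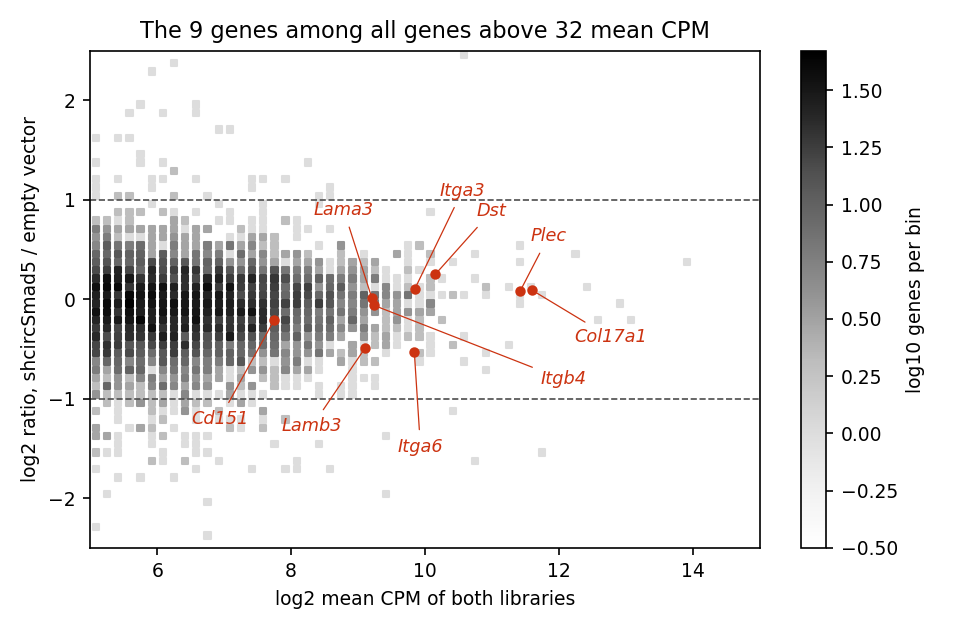
Each red point is 1 of the 9 genes, with the log2 of its mean CPM over both libraries on the x axis and its log2 ratio of shcircSmad5 over empty vector on the y axis. Grey squares are bins of the genes above 32 mean CPM, darker where they hold more genes, and 19 of 5962 such genes lie outside the drawn range. The 9 genes lie between the dashed lines at 2-fold, with Itga6 and Lamb3 lowest.

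Promoters are shown for Lamb3 and Dst, toward the lower and the upper end of the range of ratios, and for Col17a1, the most abundant of the 9 genes. They come from RefSeq on GRCm38.p6, with 250 bases before the start site and 50 after it. Windows were found for 5 of the 9 genes. Matches to TGANTCA (AP-1), GGGCGG (GC box), TATAAA and GGCGCC on both strands are in capitals, with overlapping matches counted. Of 32817 windows of 300 bases, 7.81% held TGANTCA, 35.6% GGGCGG, 13.6% TATAAA and 11.9% GGCGCC.
Lamb3, chr1:193301744-193302043, plus strand: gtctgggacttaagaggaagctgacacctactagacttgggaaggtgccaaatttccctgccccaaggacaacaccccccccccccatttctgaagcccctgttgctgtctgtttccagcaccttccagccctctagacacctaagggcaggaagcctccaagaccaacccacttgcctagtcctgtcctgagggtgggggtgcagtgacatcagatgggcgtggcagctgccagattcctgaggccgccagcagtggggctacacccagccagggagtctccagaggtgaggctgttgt
Dst, chr1:34011345-34011644, plus strand: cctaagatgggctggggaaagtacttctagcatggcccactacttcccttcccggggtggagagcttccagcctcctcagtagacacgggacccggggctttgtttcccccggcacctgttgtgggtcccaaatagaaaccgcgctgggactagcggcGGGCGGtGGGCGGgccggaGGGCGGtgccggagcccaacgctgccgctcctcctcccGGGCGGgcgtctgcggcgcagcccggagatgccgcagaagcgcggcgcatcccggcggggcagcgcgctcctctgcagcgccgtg
Dst, chr1:34160010-34160309, plus strand: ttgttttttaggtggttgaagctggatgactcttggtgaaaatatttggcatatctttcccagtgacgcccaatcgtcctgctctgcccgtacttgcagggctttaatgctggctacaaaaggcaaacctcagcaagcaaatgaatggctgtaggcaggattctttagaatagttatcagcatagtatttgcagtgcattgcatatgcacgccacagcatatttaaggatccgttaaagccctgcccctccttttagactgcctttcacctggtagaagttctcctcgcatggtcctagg
Col17a1, chr19:47691993-47692292, minus strand: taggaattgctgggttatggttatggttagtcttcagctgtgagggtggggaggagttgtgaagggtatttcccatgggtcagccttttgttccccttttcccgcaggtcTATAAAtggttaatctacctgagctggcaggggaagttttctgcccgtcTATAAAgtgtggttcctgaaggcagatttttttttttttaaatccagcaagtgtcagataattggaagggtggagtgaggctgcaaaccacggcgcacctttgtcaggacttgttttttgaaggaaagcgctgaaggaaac
The table holds 2 overlapping windows for Lamb3. The first is printed, the other starts at 193301993, and neither held any of the 4 motifs. The first Dst window held 4 matches to GGGCGG and was 70.3% G and C, and the second held none of the 4 motifs and was 46.0% G and C. The Col17a1 window held 2 matches to TATAAA. These matches describe the letters only. Of the 20 GENCODE M21 transcripts of Dst, 0 start in either Dst window, so which form these windows serve cannot be told. Of the 9 Lamb3 transcripts, the printed window holds the start of 1 and the other window the starts of 3. The Col17a1 window holds the starts of 2 of 5 transcripts.

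The ligand comes first. Laminin-332 is a trimer, and Lama3 encodes its alpha3 chain and Lamb3 its beta3 chain. These chain genes did not move together: the beta3 chain gene was lower in the hairpin library, and the alpha3 chain gene was level.

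Lama3 (ENSMUSG00000024421, chromosome 18, 12333819 to 12583013) had 22610 counts in the control library and 23273 in the hairpin library. Scaled, it stood at 589 and 593 CPM with a log2 ratio of 0.01 (interval -0.01 to 0.04), and with TMM scaling it is the only one of the 9 genes whose interval included 0. Lamb3 (ENSMUSG00000026639, chromosome 1, 193207699 to 193343878) had 24752 and 17940 counts. At 644 and 457 CPM it was 1.41-fold lower in the hairpin library (1.38 to 1.44), a log2 ratio of -0.49. Of the genes with at least 10000 counts, 116 of 876 had a log2 ratio as low or lower.

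FPKM, which divides by gene length as well as depth, lets the chains be set beside each other. The level of Lama3 was 0.562 of that of Lamb3 in the control library (0.552 to 0.572) and 0.798 in the hairpin library (0.783 to 0.814). It moved by 0.51 on the log2 scale (0.47 to 0.54). The balances divide by pooled exon lengths, 10745 bases for Lama3 and 6612 for Lamb3. The length of a single form would shift both balances, so whether the change is toward equal levels cannot be told. A scaling factor per library cancels out of such a balance, but subtracting each chromosome's median log2 ratio does not, and with it the change was 0.46.

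The receptors follow. Itga6 and Itgb4 encode the subunits of integrin alpha6beta4, and here the alpha6 gene was lower in the hairpin library while the beta4 gene was nearly level. Itga6 (ENSMUSG00000027111, chromosome 2, 71745616 to 71858416) had 41616 counts in the control library and 29412 in the hairpin library. At 1083 and 750 CPM it was 1.44-fold lower (1.42 to 1.47), a log2 ratio of -0.53, the lowest of the 9 genes. Of the genes with at least 10000 counts, 11.3% had a log2 ratio as low or lower. Itgb4 (ENSMUSG00000020758, chromosome 11, 115974709 to 116008412), whose long cytoplasmic tail binds plectin, had 23584 and 23154 counts. Its log2 ratio was -0.06 (-0.08 to -0.03) with TMM scaling and lay between -0.15 and 0.02 over the settings tried, so it has no clear direction.

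In FPKM, Itga6 stood at 1.35 of Itgb4 in the control library (1.33 to 1.38) and at 0.975 in the hairpin library (0.958 to 0.992). Per pooled exonic base the alpha6 gene was above its partner in the control library and slightly below it in the hairpin library. That order depends on the gene lengths used. The lengths cancel from the change between the libraries only if the mix of transcript forms was the same in both, which gene counts cannot show. The change of this balance was -0.47 on the log2 scale, and -0.22 once chromosome medians were subtracted. The alpha6 subunit can also pair with beta1, whose gene Itgb1 lies outside the naming rule and had 46132 and 36127 counts, a log2 ratio of -0.38 (-0.40 to -0.36). The balance of Itga6 to Itgb1, added after the values were seen, was 0.403 and 0.363, a log2 change of -0.15 (-0.18 to -0.12).

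Itga3 encodes the alpha subunit of integrin alpha3beta1 and stood slightly higher in the hairpin library. It (ENSMUSG00000001507, chromosome 11, 95044474 to 95076801) had 34053 and 37368 counts in the control and hairpin libraries. Its log2 ratio was 0.10 (0.08 to 0.13), from 886 to 953 CPM, but 0.01 (-0.01 to 0.03) once chromosome medians were subtracted. Relative to Itgb1, the gene of its beta subunit and also a pair added after the values were seen, Itga3 went from 0.528 to 0.739 in FPKM. That is a log2 change of 0.49 (0.46 to 0.52), opposite in direction to that of Itga6 to Itgb1, and 0.26 with chromosome medians subtracted. In FPKM, the genes of the 2 laminin-binding alpha subunits differed more from each other in the hairpin library. Itga3 stood at 1.31 of Itga6 in the control library (1.29 to 1.33) and at 2.03 in the hairpin library (2.00 to 2.07). That shift of 0.63 on the log2 scale was the largest of the 11 balances computed, the 2 added ones included. With chromosome medians subtracted it was 0.38, below the 0.46 of Lama3 to Lamb3.

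**Figure D2:**
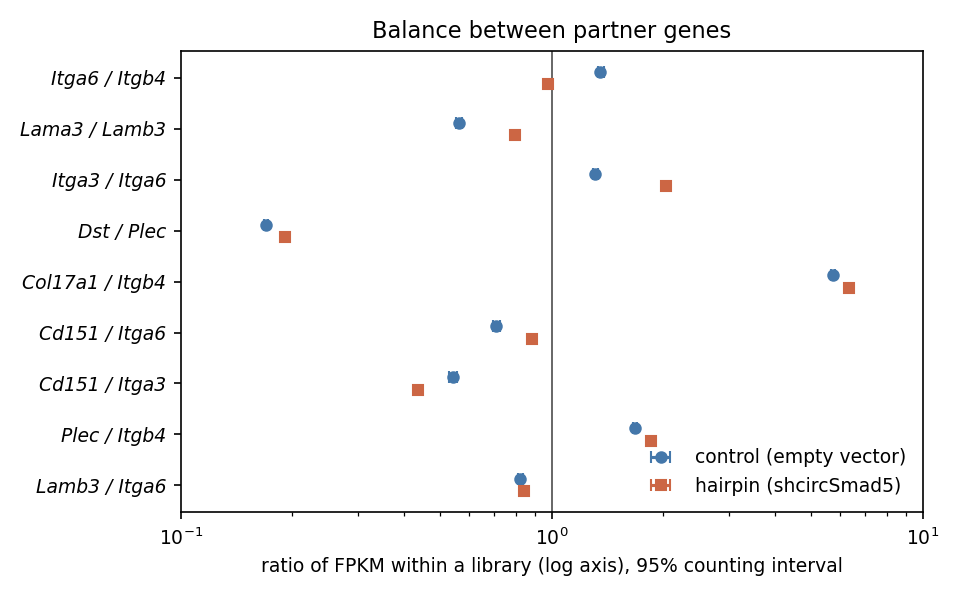
Each row is a pair of partner genes, and the x axis is the ratio of their FPKM within a library on a log axis. Circles stand for the control library and squares for the hairpin library, with 95% counting intervals that are mostly narrower than the symbols. The 9 pairs fixed with the lists are drawn as deposited, without subtracting chromosome medians. On this scale Itga3 over Itga6 moves most, from 1.31 to 2.03, and Lamb3 over Itga6 is at 0.822 and 0.843 (a log2 change of 0.04, or -0.15 with chromosome medians subtracted).

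Cd151 encodes a tetraspanin that associates with the laminin-binding integrins in the membrane. It (ENSMUSG00000025510, chromosome 7, 141467392 to 141471473) had 8846 counts in the control library and 7804 in the hairpin library, the fewest of the 9 genes. At 230 and 199 CPM its log2 ratio was -0.21 (-0.25 to -0.17). It lay between its integrin partners in direction and size: relative to Itga6 it went from 0.709 to 0.885 in FPKM, and relative to Itga3 from 0.541 to 0.435, a log2 change of -0.31 that was -0.14 with chromosome medians subtracted.

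Col17a1 encodes collagen XVII, which spans the membrane beside the integrin. It (ENSMUSG00000025064, chromosome 19, 47646344 to 47692094) had the most counts of the 9 genes, 115951 in the control library and 125810 in the hairpin library. Its log2 ratio was 0.09 (0.08 to 0.10), and -0.05 once chromosome medians were subtracted. Relative to Itgb4, to which it binds, it stood at 5.74 in FPKM in the control library and at 6.34 in the hairpin library.

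The plakins, large linkers that tie the plaque to keratin filaments, were both slightly higher in the hairpin library with TMM scaling, though Plec was at -0.12 on the log2 scale once chromosome medians were subtracted. Plec (ENSMUSG00000022565, chromosome 15, 76170974 to 76232574), the gene of plectin, had 102357 and 110371 counts, a log2 ratio of 0.08 (0.07 to 0.09). Dst (ENSMUSG00000026131, chromosome 1, 33908225 to 34308661), whose epithelial product is BPAG1, had 40007 and 48447 counts. At 1041 and 1235 CPM it was 1.19-fold higher (1.17 to 1.20), a log2 ratio of 0.25. Of the genes with at least 10000 counts, 14.0% had a log2 ratio as high or higher.

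**Figure D3:**
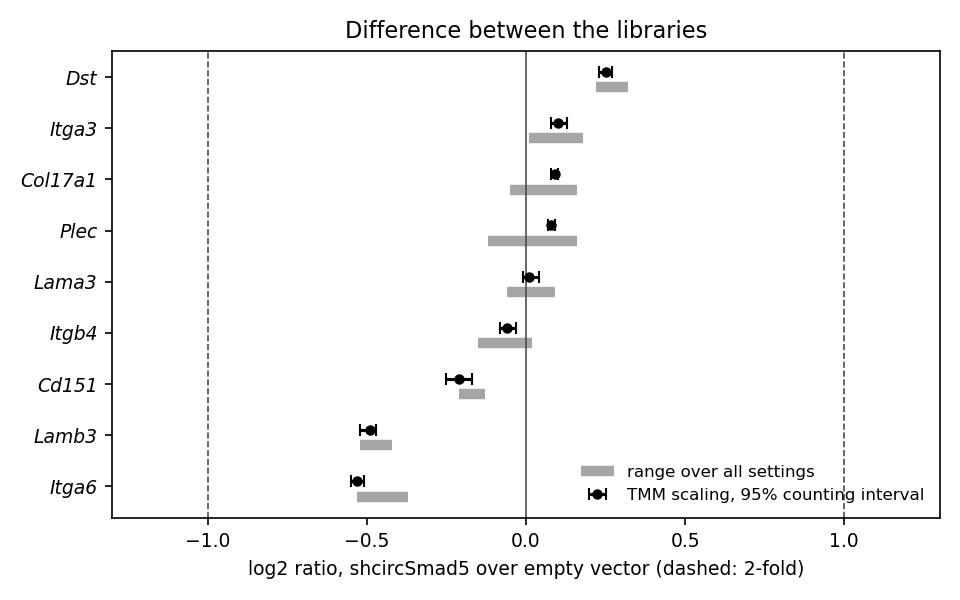
Black points are the log2 ratios of shcircSmad5 over empty vector with TMM scaling and their 95% counting intervals, and grey bars are the range over all settings tried. Dashed lines mark 2-fold. Itga6, Lamb3 and Cd151 lie below 0 and Dst and Itga3 above 0 under every setting tried (Itga3 by only 0.01 with each chromosome centred), while Itgb4, Lama3, Plec and Col17a1 cross 0.

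Per length, Col17a1 stood far above the rest and Dst below. In the control library the order of FPKM was Col17a1 (491), Itga3 (152), Plec (144), Itga6 (116), Lamb3 (95.3), Itgb4 (85.6), Cd151 (82.2), Lama3 (53.6) and Dst (24.5). In the hairpin library it was Col17a1 (545), Itga3 (171), Plec (159), Itgb4 (86.0), Itga6 (83.8), Cd151 (74.2), Lamb3 (70.7), Lama3 (56.4) and Dst (30.3). In the hairpin library Itga6 stood below Itgb4, and Lamb3 below both Itgb4 and Cd151, while the other genes had the same order in both libraries. The counting intervals of neighbours in these orders did not overlap, but the narrowest gap, between Itgb4 (84.9 to 87.1) and Itga6 (82.9 to 84.8) in the hairpin library, is small, and how much cultures vary is unknown. Col17a1 ranked 29th and 28th by FPKM among all 22383 genes, and Dst ranked 2143 and 1604.

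**Figure D4:**
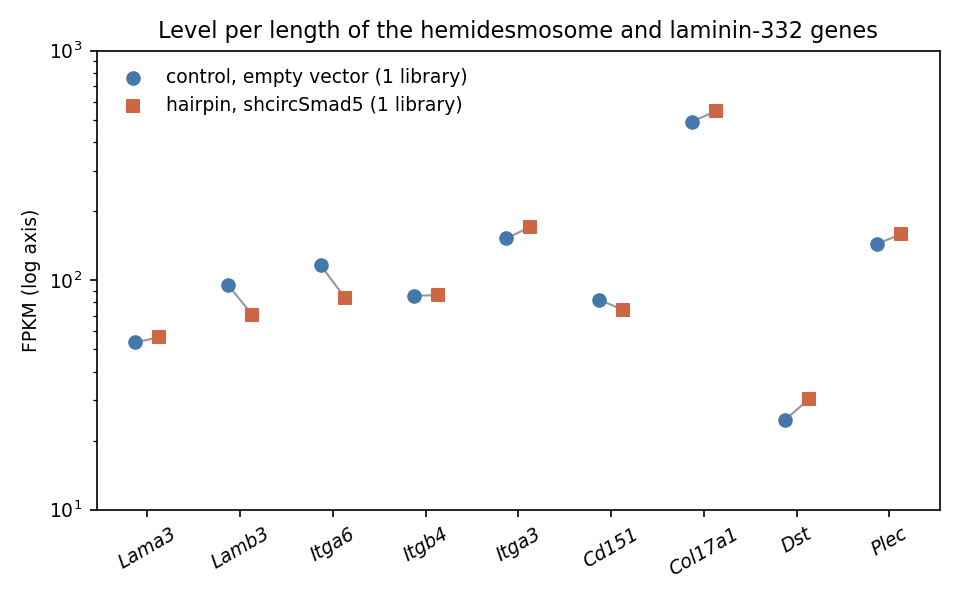
The y axis is FPKM on a log axis, and each gene has a circle for the control library and a square for the hairpin library, joined by a line. Levels span from 24.5 (Dst) to 491 (Col17a1) in the control library, and the steepest falling lines are those of Itga6 and Lamb3.

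The levels of Dst and of other genes with several forms depend on the gene model. The deposited FPKM of Dst divides by 41155 exonic bases pooled over 20 annotated transcripts, which include long forms of nerve and muscle, so the value is lower than a level per molecule of a shorter form would be. Plec has 22 annotated transcripts, and a gene count does not tell the forms of any of these genes apart. Exons of other genes on the opposite strand cover 7.66% of the exonic bases of Itgb4, 7.04% of those of Cd151, 3.63% of those of Dst and 1.83% of those of Lama3. The sources used here do not give the strand setting of the counting. Gm10575, the gene opposite Cd151, had 88 and 113 counts. Exons of Parp10, on the same strand as Plec, cover 1.13% of the exonic bases of Plec. Parp10 had 478 counts in the control library and 843 in the hairpin library.

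The genes lie on 7 chromosomes, and their neighbours on the chromosome had ratios of their own. Of the 10 nearest genes with at least 20 counts around Lamb3, 5 on each side, 9 had a higher ratio than Lamb3 and their median log2 ratio was 0.69. Of these, 3 passed the size rule as higher (background 8.43%). Among them was Mir205hg, the host gene of a keratinocyte microRNA, with 87 and 656 counts, a gene named after its values were seen. Genes outside the protein-coding class, such as Mir205hg, passed as higher more often than that background. Of the 1146 genes that passed as higher, 535 were protein-coding, against 11605 of the 13596 genes with at least 20 counts. Over all 9 genes, 8 of 90 neighbours passed as higher (8.89%, against the same background) and 2 as lower (2.22%, background 6.24%). All 10 neighbours of Cd151 had a higher ratio than Cd151, with a median of 0.06. Around Itga6 8 of 10 were higher, with a median of -0.09, and the 1048 genes of chromosome 2 had a median of -0.16. Dst lay near its neighbours, at 0.25 against a median of 0.29. Lama3 was at 0.01 where its neighbours had a median of -0.36.

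Around the 9 genes, 97 genes of related adhesion lists were looked up. Of the 79 with at least 20 counts, 1 was higher by the size rule (background 8.43%) and 8 were lower (6.24%), and their median log2 ratio was -0.11. These backgrounds include noncoding genes. Of the 11605 protein-coding genes with at least 20 counts, 535 were higher and 740 lower. The related genes that passed had an FPKM of at most 18.4 in either library.

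Of the 5 other laminin chain genes with at least 20 counts, none passed the size rule (median -0.11). Lama5, whose chain is the main alpha chain of other epithelial laminins, had 39931 counts in the control library and 36700 in the hairpin library, a log2 ratio of -0.15. Lamc1, whose chain pairs with it, had 11648 and 9426 counts (-0.34), and Lamb1, whose product is a beta chain, 8721 and 8278 (-0.11). Of 12 other basement membrane genes (median -0.33), 3 were lower and 1 was higher. All 3 lower ones encode chains of 1 form of collagen IV: Col4a5 (4860 and 1583 counts, 3.13-fold lower, interval 2.96 to 3.32), Col4a4 (1111 and 381 counts, 2.98-fold) and Col4a3 (176 and 36 counts, 4.99-fold). Npnt, which encodes the matrix protein nephronectin of the follicle, was 2.53-fold higher on 12 and 31 counts (1.26 to 5.41), below the stricter minimum of 100 counts.

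Of 7 integrin partners and tetraspanins (median -0.38), Igsf8 was lower. Its product, an immunoglobulin-family partner of the tetraspanins CD9 and CD81, had 1290 and 424 counts in the control and hairpin libraries (3.11-fold lower, 2.78 to 3.47). None of the 5 other plakin genes passed the rule (median 0.15). The desmosomal plakin gene Dsp had 73278 and 80841 counts (log2 ratio 0.11), the cornified envelope plakin gene Ppl 14030 and 20730 (0.53), and the cytoskeletal linker gene Macf1 33613 and 30602 (-0.17).

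Of the 3 basal keratin genes, Krt15, a bulge keratin, was 3.27-fold lower on 253 and 79 counts. Krt5 and Krt14, whose products form the filaments that the plakins hold, had log2 ratios of 0.09 and 0.45. Of 22 focal adhesion linker genes (median -0.04), Fermt2, the gene of the integrin activator kindlin-2, was 5.30-fold lower on 83 and 16 counts (3.08 to 9.69), also below the minimum of 100. Of 8 protease genes (median -0.17), the plasminogen activator gene Plat was 2.07-fold lower with 3353 and 1652 counts (1.95 to 2.20), and fell short of 2-fold, at a log2 ratio of -0.99, with total counts. A list of 17 signalling genes for integrin beta4 and plectin (median -0.09) held mostly genes of kinases and receptors. Of these 17, the insulin receptor substrate gene Irs1 was 4.38-fold lower on 236 and 55 counts (3.25 to 5.99).

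**Figure D5:**
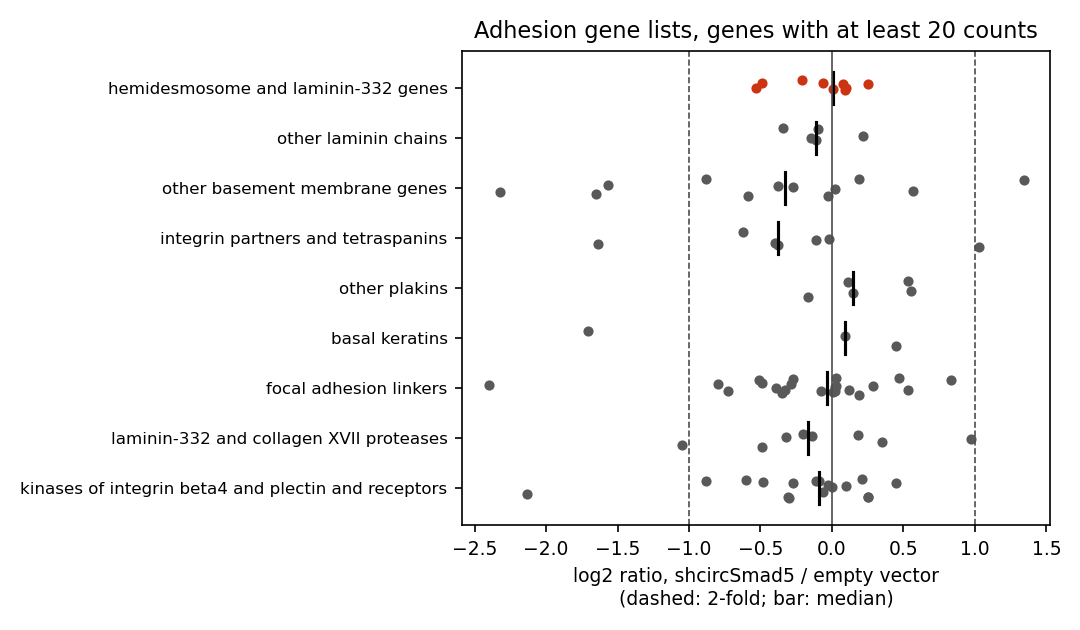
Each point is a gene with at least 20 counts, placed by its log2 ratio of shcircSmad5 over empty vector, in rows by list, with a bar at the list's median and dashed lines at 2-fold. The 9 hemidesmosome and laminin-332 genes, in red, lie between -0.53 and 0.25, and the points left of the lower dashed line are the 8 lower genes named in the text.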

How the data were processed

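RNA was sequenced from 1 library per group. Per the labels' protocols, 3 µg of total RNA was depleted of ribosomal RNA and made into libraries with a directional kit. The submitters' processing notes name HISAT2, HTSeq 0.13.5, GRCm38 and GRCh38 with no role for either build. The sources used here do not give the annotation, the strand setting or what was done with multiply aligned reads.

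The authors deposited raw read counts and FPKM values per gene, per the file headers. The FPKM of 100% of genes above 0 implied a whole-number gene length within 0.001 bases, which equalled the GENCODE M21 (GRCm38) exon length for 98.0% of them in the control library and 98.1% in the hairpin library. Of the gene IDs, 22319 were found in that release, which gave coordinates.

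TMM scaling used edgeR 4.0.16 with R 4.3.3, and ratios are shcircSmad5 over empty vector. No test was possible with 1 library per group. Ratios have 95% intervals by the exact Clopper-Pearson method on how a gene's counts divide, for FPKM exact Poisson intervals, and for the change of a balance a normal approximation on the log scale. The intervals cover counting error alone, as 1 library per group gives no measure of how cultures vary. PCR copies could not be set apart from separate molecules, so the intervals may be too narrow even for counting error. The rule's script was tested on counts simulated with known folds. Other settings were size factors of DESeq2 1.42.0, upper quartile scaling, total counts, totals without mitochondrial and the top 20 genes, TMM of protein-coding genes, each chromosome centred at its median, log2(FPKM + 0.1), log2(FPKM + 1), a prior count of 2, and other count minimums and fold limits. The 9 genes, the lists and the rules were chosen with earlier results of these data known. The rule for names takes all 9 genes, Smad5, and from each related list the most counted genes, up to 4 that pass the size rule or up to 3 where none does. Marker lists are given as sums, save Krt5, Krt14 and Trp63. From the related lists 1 gene is not reported here.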

Additional observations from a re-analysis of the deposited data

How the results depend on the processing

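No paired analysis was possible because each group has 1 library. The count of 0 of 9 genes past the size rule was the same under all 10 alternatives tried, which included a 1.5-fold limit. A 3-fold limit, a minimum of 100 counts and no count minimum could not have raised this count. The interval excluded 1 for 8 of 9 genes under each of the 6 other scalings. The gene whose interval included 0 was not the same: it was Lama3 with TMM and DESeq2 size factors, Itgb4 with 4 of the scalings, and Itga3 with each chromosome centred. The median log2 ratio of the 9 genes was near 0 and changed sign with the setting. It was 0.07 with total counts, 0.08 with upper quartile scaling, 0.09 with totals without mitochondrial and top genes and 0.06 with TMM of protein-coding genes, since these scalings shift every ratio upward. It was -0.12 with each chromosome centred, and the mean was -0.08. Itgb4 turned positive under 5 of 9 alternatives, and Lama3, Col17a1 and Plec turned negative with each chromosome centred (-0.06, -0.05 and -0.12). Itga3 was at 0.01 there, with an interval of -0.01 to 0.03, so it had no direction under that setting. The other 4 genes kept their direction, with Itga6 between -0.53 and -0.37 and Lamb3 between -0.52 and -0.42. Of the related genes, 2 were higher with total counts, 2 with upper quartile scaling, 3 with each chromosome centred, 0 with a minimum of 100 counts and 2 with a 1.5-fold limit, under which 15 were lower. Cd82 was the added higher gene with total counts and upper quartile scaling, joined by Mmp2 with each chromosome centred, and Plat lost its call under these 3 settings. The change of the partner balances with each chromosome centred was an alternative chosen after seeing the data. The depth of these genes limits little, and the missing replicates limit every difference.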
